A study of Mus musculus with 12 samples.

Results

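Bone marrow stromal cells (BMSCs) were compared with induced pluripotent stem cells (iPSCs) of the mouse over 69 of the 99 genes in the deposited table. A gene entered if 3 or more of the 6 libraries compared, 3 of BMSCs and 3 of iPSCs, had an FPKM of 1 or higher. FPKM is a fragment count scaled by transcript length and library total. The study made RNA libraries from 4 cell types, the other two being skin fibroblasts (Fibs) and mesenchymal cells induced from the iPSCs (iMSCs), with 3 independent cultures each. BMSCs were wild type (WT), were isolated from the femoral marrow cavity and grew in low-sugar DMEM with 10% FBS. The iPSCs, whose genotype is labelled Reprogramming, were made from ear skin Fibs of C57BL/6 mice with Yamanaka factors carried by Sendai virus, were picked as colonies and grew in DMEM/F-12 with KnockOut Serum Replacement and LIF. Fibs were WT and grew in high-sugar DMEM with 10% FBS. Medium and cell type therefore changed together between the groups and cannot be told apart. The reprogrammed cells were first plated on inactivated feeder cells, and the sources used here do not say whether feeder cells were left in the sequenced cultures.

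BMSCs are adherent cells of the marrow stroma that can form bone, cartilage and fat and that secrete matrix, growth factors and cues for blood stem cells. Mouse iPSCs grow as compact colonies joined by E-cadherin, divide quickly and keep an embryo-like transcriptional state that LIF helps to maintain. Passing from a somatic mesenchymal state to pluripotency involves a mesenchymal to epithelial transition, in which cadherin junctions are gained and mesenchymal regulators are turned down.

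The table held few genes that define either cell type. Of 9 pluripotent stem cell markers only Cdh1 was in it, and none of the 26 genes of the pluripotency list. Cdh1 lay between 132 and 143 FPKM in the iPSC libraries and between 0.0446 and 0.127 FPKM in the BMSC libraries, so the 2 cell types stood apart by this marker. Of 13 mesenchymal stromal markers 3 were present (Cav2, Fap and Itga5), and their summed FPKM was 68.7 to 71.1 in BMSCs and 57.8 to 62.2 in iPSCs, most of it from Itga5. Fap, the only feeder fibroblast marker of 7 in the table, was at 0 to 0.0452 FPKM in iPSCs and at 0.121 to 0.280 FPKM in BMSCs. Of 13 leukocyte and macrophage markers 4 were present, and their sum was 0.988 to 1.39 FPKM in BMSCs and 5.32 to 6.43 FPKM in iPSCs, the latter mostly Lck. The labelled identities could not be checked further from these genes. Library totals implied by count, FPKM and transcript length were 70058857 to 73013401 in BMSCs and 71301560 to 77355820 in iPSCs, and the 99 genes held 0.367% to 0.369% and 0.471% to 0.485% of them.

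Of the 69 genes, 33 (47.8%) were called, 12 higher and 21 lower in BMSCs. A call needed a Benjamini-Hochberg adjusted p under 0.05 in edgeR's quasi-likelihood test and a fold change over 2, that is, an absolute log2 fold change over 1. Over all 70 genes tested 48.6% were called, 18.6% higher and 30% lower, and 69 of these 70 are the genes described here, so the share is not a property of a selected group. At the adjusted p alone 54 genes passed, 18 higher and 36 lower, against 78.6% of all genes tested, 27.1% higher and 51.4% lower. The remaining 15 did not pass. Counts for each gene list below stand beside these shares over all genes tested. The FPKM values of the 3 BMSC and 3 iPSC libraries did not overlap for 57 of the 69 genes, including all 33 called, beside 82.9% of all genes tested. The median log2 fold change was -0.27 over the 69 genes and -0.26 over all tested, where positive is higher in BMSCs. Small differences depended on the scaling: with TMM scaling 11 genes passed the adjusted p that did not pass with library totals, all 11 of them higher in BMSCs, and 7 no longer passed. The TMM factors came from the 70 genes tested alone, of which 48.6% were called, and not from the whole library. Directions below are those with library totals. In bulk RNA, fewer expressing cells and less RNA per cell cannot be told apart, and this holds for every level below.

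**Figure D1:**
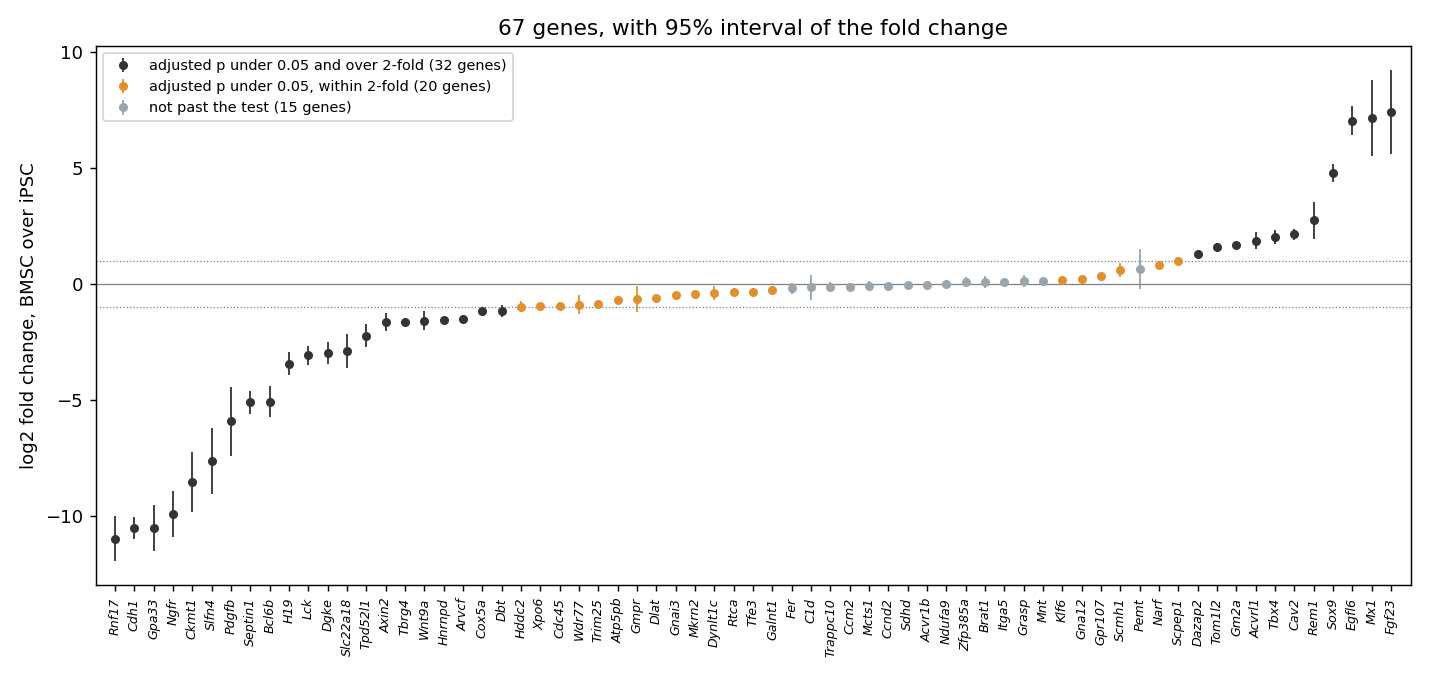
Log2 fold change of BMSCs over iPSCs (vertical axis) for 67 of the 69 genes in order of size (horizontal axis). Points carry 95% intervals derived from the F statistic of edgeR's fit of 3 libraries a group. These intervals are too narrow for genes with very few counts in a cell type, such as Ngfr. Dotted lines mark a 2-fold difference. The 21 called falls on the left reach -10.96 for Rnf17, 11 called rises on the right reach 7.39 for Fgf23, and the genes between them were not called.

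The genes were sorted by the libraries in which they reached the minimum FPKM of 1, which is not a sorting by size of change. Axin2 reached it in iPSCs alone with a log2 fold change of -1.65, and H19 in all 6 libraries with -3.44. At an FPKM of 1, 49 genes reached the minimum in all 6 libraries, and 14 of these were called, 7 in each direction. Only in BMSC libraries did 5 genes reach it (Fgf23, Rem1, Mx1, Egfl6 and Sox9), and only in iPSC libraries did 12 (Ngfr, Axin2, Slc22a18, Slfn4, Dgke, Cdh1, Ckmt1, Bcl6b, Rnf17, Lck, Pdgfb and Gpa33). All 17 of these were called, which the entry rule itself favoured, since a gene that entered through 1 group alone had to differ. The rule also fixed the direction of each, and this holds in the gene lists below. The last 3 genes, Wnt9a, Pemt and Septin1, reached it in some but not all BMSC libraries. Nearest to the minimum among the genes that entered was Pemt, at 1.21, 0.956 and 1.73 FPKM in BMSCs and 0.595, 0.755 and 1.15 FPKM in iPSCs. Just outside was Pparg, the regulator of fat cell formation, at 0.851, 1.06 and 0.436 FPKM in BMSCs and 0.229, 0.207 and 0.248 FPKM in iPSCs. Replicates were close for the 49 genes above the minimum throughout, with a median coefficient of variation of 4.65% in BMSCs and 5.05% in iPSCs.

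**Figure D2:**
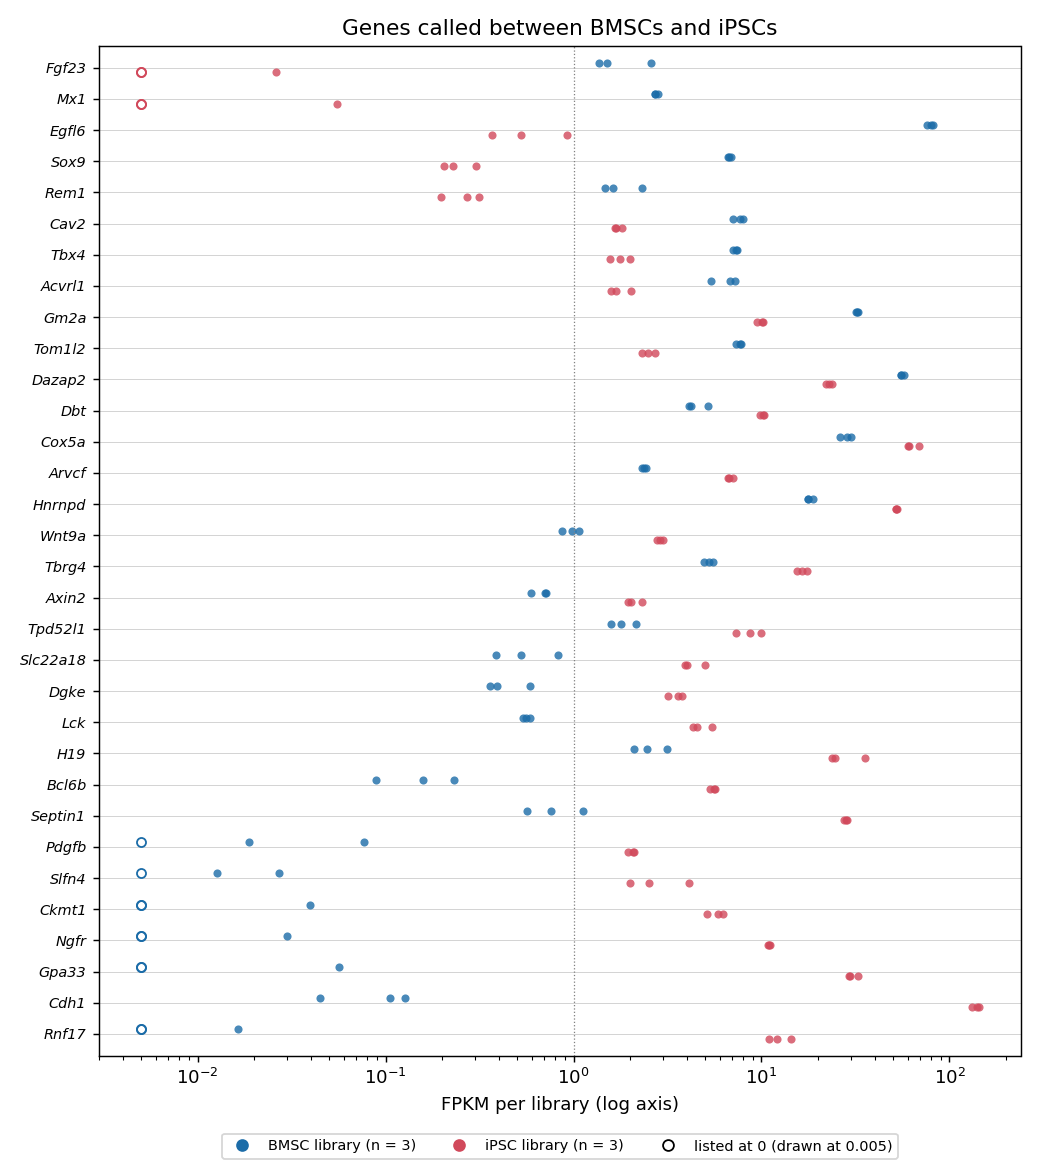
FPKM of each library (horizontal log axis) for 32 of the 33 called genes (rows, ordered by log2 fold change), blue for the 3 BMSC libraries and red for the 3 iPSC libraries; open circles are libraries listed at 0, and the dotted line marks an FPKM of 1. No row has overlapping groups, and the widest gaps are those of Rnf17, Cdh1 and Gpa33, near or below 0.1 FPKM in BMSCs and above 10 FPKM in iPSCs.

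The 250 bases before the start that RefSeq gives are shown for 4 called genes whose level was at least 5 FPKM in one cell type and lower in the other, as the 2 largest rises (Egfl6 and Cav2) and the 2 largest falls (Gpa33 and Ngfr) that had a single window in RefSeq's table. The windows come from RefSeq on GRCm38.p6 and run 5′ to 3′ on the strand of the gene: Egfl6 at chrX:166585717-166585966 (minus strand), Cav2 at chr6:17280935-17281184 (plus strand), Gpa33 at chr1:166129971-166130220 (plus strand) and Ngfr at chr11:95587699-95587948 (minus strand). The deposited table places some starts elsewhere: by its coordinates the Ngfr window reaches 37 bases into the gene, that of Egfl6 reaches 4 bases into it, and that of Gpa33 stops 17 bases short of it. Capitals mark matches to the GC box, GGGCGG on either strand, the sequence bound by Sp1-type factors.
Egfl6: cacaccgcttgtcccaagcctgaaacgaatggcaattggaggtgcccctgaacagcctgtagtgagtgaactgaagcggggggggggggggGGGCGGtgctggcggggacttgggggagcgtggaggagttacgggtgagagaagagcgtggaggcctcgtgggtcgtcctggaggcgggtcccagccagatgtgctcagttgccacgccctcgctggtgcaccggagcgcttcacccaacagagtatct
Cav2: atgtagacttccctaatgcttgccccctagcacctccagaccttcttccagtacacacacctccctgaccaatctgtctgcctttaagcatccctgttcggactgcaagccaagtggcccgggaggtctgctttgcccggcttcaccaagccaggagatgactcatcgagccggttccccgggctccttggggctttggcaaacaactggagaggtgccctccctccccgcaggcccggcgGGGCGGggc
Gpa33: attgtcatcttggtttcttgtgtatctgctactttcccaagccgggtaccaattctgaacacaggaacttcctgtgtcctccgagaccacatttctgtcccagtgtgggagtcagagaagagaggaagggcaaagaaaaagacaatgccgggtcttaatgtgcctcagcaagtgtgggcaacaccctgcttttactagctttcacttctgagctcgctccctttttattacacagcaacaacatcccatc
Ngfr: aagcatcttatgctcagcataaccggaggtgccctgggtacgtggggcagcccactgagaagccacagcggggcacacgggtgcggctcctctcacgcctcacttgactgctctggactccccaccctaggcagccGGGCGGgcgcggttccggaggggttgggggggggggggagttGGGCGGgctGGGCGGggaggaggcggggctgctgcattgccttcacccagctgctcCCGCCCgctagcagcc

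Both windows of the genes higher in BMSCs held 1 GC box, 159 bases before the start in Egfl6 and 9 bases before it in Cav2, Ngfr held 4, and Gpa33 held none. Among all 32817 windows of this length 32.7% held at least 1, so its presence is common. None of the 4 windows held the TATA box TATAAA, found in 12.4% of all windows, the E-box CAGGTG bound by Snail and Zeb repressors, found in 17.2%, or the octamer ATGCAAAT bound by Oct4, found in 1.6%, each searched on both strands. The CpG count was 15 in Egfl6, 10 in Cav2, 16 in Ngfr and 4 in Gpa33, against a median of 6 over all windows. The letters thus did not sort the genes by direction, with Ngfr and Gpa33 at opposite ends although both were nearly silent in BMSCs. Of the 69 genes 54 had a window in RefSeq's table.

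Of the 4 genes of the mesenchymal surface and matrix list in the table, 3 entered and Fap did not. Of the 3 that entered, 2 rose, none fell and 1 did not pass the test, with a median log2 fold change of 2.14. Egfl6 entered through BMSC libraries alone, so the entry rule fixed its direction. Egfl6, a secreted protein with EGF repeats that binds integrins and promotes the migration of endothelial cells, had 80, 82.1 and 75.6 FPKM in the BMSC libraries and 0.924, 0.369 and 0.523 FPKM in the iPSC libraries. It was the most strongly raised of the genes above 5 FPKM, with 79.3 ± 3.31 FPKM (SD, n = 3) against 0.605 ± 0.287 FPKM (log2 fold change 7.03, SE 0.27, edgeR adjusted p = 1.64e-07). Cav2, caveolin 2, which helps to coat the membrane pits called caveolae, had 7.07, 7.68 and 7.95 FPKM in BMSCs and 1.81, 1.67 and 1.67 FPKM in iPSCs. The lowest BMSC library was well above the highest iPSC library (log2 fold change 2.14, SE 0.11, edgeR adjusted p = 5.51e-07). Itga5, the alpha-5 chain of the fibronectin receptor, was abundant in both, at 61.5, 61.4 and 63.1 FPKM in BMSCs and 55.99, 60.5 and 56.1 FPKM in iPSCs. Its log2 fold change was 0.11 (95% interval 0.01 to 0.21, edgeR adjusted p = 0.0501), and it passed at an adjusted p under 0.05 under several of the alternatives but never reached a 2-fold difference.

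The table held 5 skeletal and mesodermal transcription factors, of which 2 entered, and both of these were higher in BMSCs. Sox9 entered through BMSC libraries alone, so the entry rule fixed its direction. Sox9, the master regulator of cartilage formation, had 6.91, 6.68 and 6.701 FPKM in BMSCs and 0.204, 0.302 and 0.229 FPKM in iPSCs. The BMSC libraries agreed within 1.93% (coefficient of variation), and the difference was 27.3-fold (log2 fold change 4.77, SE 0.16, edgeR adjusted p = 1.13e-07). Tbx4, a T-box factor of hindlimb and lung mesenchyme, had 7.395, 7.34 and 7.06 FPKM in BMSCs and 2.004, 1.76 and 1.57 FPKM in iPSCs, so it was clearly present in both (log2 fold change 2.03, SE 0.12, edgeR adjusted p = 1.83e-06). Pparg, too low to enter, was higher in BMSCs as well (log2 fold change 1.76, SE 0.42, edgeR adjusted p = 0.00523). The other two, Lhx2 and Tbx2, were far under the minimum in both cell types and were not tested. Lhx2, a LIM-homeobox factor of limb and forebrain, had 0.101, 0.0844 and 0.108 FPKM in BMSCs and 0.252, 0.301 and 0.239 FPKM in iPSCs, and the Tbx2 mean was 0.0536 against 0.188 FPKM, so both were listed lower in BMSCs.

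The table held 7 genes of the epithelial adhesion and surface list, of which 4 entered. All 4 were lower in BMSCs, with a median log2 fold change of -6.36. Cdh1 and Gpa33 entered through iPSC libraries alone, so the entry rule fixed their direction. Cdh1, E-cadherin, which holds the cells of a pluripotent colony together, was the most abundant gene of the iPSCs here, at 132, 143 and 139 FPKM, and had 0.127, 0.106 and 0.0446 FPKM in BMSCs. Its BMSC libraries held reads in every replicate, and the difference was 1464-fold (log2 fold change -10.52, SE 0.20, edgeR adjusted p = 7.6e-09). Gpa33, a surface antigen of the immunoglobulin superfamily best known from gut epithelium, had 29.7, 32.6 and 29.2 FPKM in iPSCs and 0, 0 and 0.0562 FPKM in BMSCs. Only 1 BMSC library held any count, and the ratio of summed counts, iPSC over BMSC, was 1496, 95% interval 511 to 7255. Tpd52l1, a small coiled-coil protein of the tumour protein D52 family, was lower without being lost, at 1.79, 1.58 and 2.16 FPKM in BMSCs and 9.95, 7.33 and 8.65 FPKM in iPSCs (log2 fold change -2.22, SE 0.20, edgeR adjusted p = 2.19e-05). Arvcf, an armadillo-repeat catenin that binds the tails of cadherins, had 2.301, 2.37 and 2.44 FPKM in BMSCs and 6.74, 7.01 and 6.597 FPKM in iPSCs (log2 fold change -1.51, SE 0.07, edgeR adjusted p = 3.62e-07). Arvcf shares exon sequence with a gene on the opposite strand. So do many other genes here, among them Ckmt1, Cox5a, Cdc45, Axin2, Acvrl1, Tom1l2, Scpep1, Hnrnpd, Dgke and Ccnd2. H19, Lck and Tbrg4 share exon sequence with a gene on the same strand. The library kit keeps strand, but the sources used here do not say whether the counting used it, so reads in such overlaps cannot be assigned with certainty. The classical cadherin gene Cdh4 did not enter, at 0.642, 0.788 and 0.885 FPKM in iPSCs and listed at 0 in every BMSC library.

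**Figure D3:**
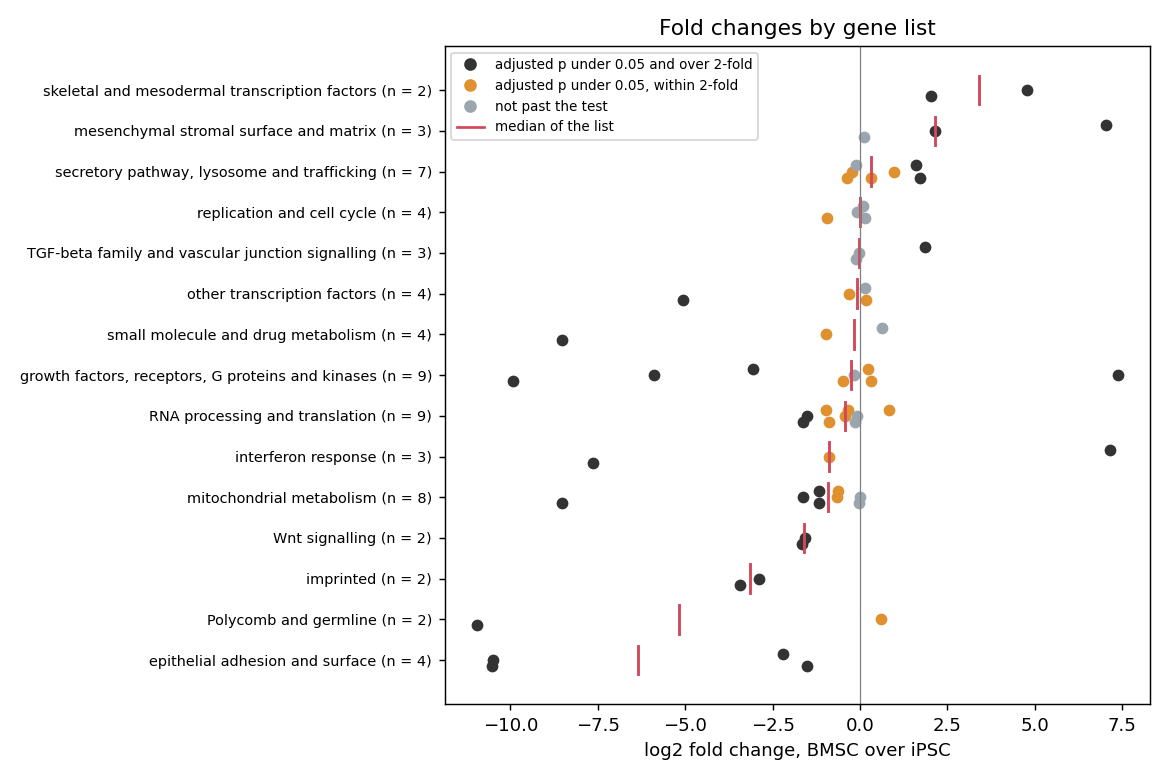
Log2 fold change of BMSCs over iPSCs (horizontal axis) for the genes of each list (rows, n genes), coloured by the outcome of edgeR's test, with the median over all n genes as a red bar; 2 genes are not drawn. Only genes that entered are drawn. Both skeletal genes that entered lie right of 0 and all 4 epithelial genes that entered left of it, while the replication list is centred near 0. The entry rule fixed the side of Sox9, Egfl6, Fgf23 and Mx1, which entered through BMSCs alone. It also fixed the side of Cdh1, Gpa33, Ngfr, Axin2, Slc22a18, Slfn4, Ckmt1, Bcl6b, Rnf17, Lck and Pdgfb, which entered through iPSCs alone. The skeletal genes Lhx2 and Tbx2 did not enter and were listed lower in BMSCs.

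Among growth factors, receptors, G proteins and kinases 1 gene of 9 was called higher and 3 lower, and the median was -0.27. Of all genes tested 18.6% were called higher and 30% lower. Fgf23 entered through BMSC libraries alone, and Ngfr, Pdgfb and Lck through iPSC libraries alone, so the entry rule fixed their direction. Fgf23, a hormone made chiefly by osteocytes that lowers phosphate uptake in the kidney, had 1.499, 2.57 and 1.37 FPKM in BMSCs and 0, 0.0262 and 0 FPKM in iPSCs. The level in BMSCs was low and uneven between libraries, and the ratio of summed counts, BMSC over iPSC, was 183, 95% interval 32.4 to 7270, the wide interval coming from a single small count in iPSCs (log2 fold change 7.39, SE 0.77, edgeR adjusted p = 4.15e-05). Ngfr, the low-affinity neurotrophin receptor, had 10.8, 11.1 and 10.97 FPKM in iPSCs and 0, 0 and 0.0299 FPKM in BMSCs. The receptor is widely used as a surface marker of human marrow stromal cells, and in these mouse BMSC libraries 2 of 3 were listed at 0, with a ratio of iPSC to BMSC counts of 1012, 95% interval 279.8 to 8363 (log2 fold change -9.92, SE 0.42, edgeR adjusted p = 2.43e-07). Pdgfb, a ligand that draws mural and stromal cells to vessels, had 1.95, 2.099 and 2.06 FPKM in iPSCs and 0, 0.0772 and 0.0187 FPKM in BMSCs. Its iPSC over BMSC count ratio was 60.7, 95% interval 28.7 to 133 (log2 fold change -5.9, SE 0.63, edgeR adjusted p = 4.81e-05). Lck, a Src-family kinase known from T lymphocytes, had 0.540, 0.558 and 0.589 FPKM in BMSCs and 4.54, 5.49 and 4.33 FPKM in iPSCs, a lower but measurable level in every BMSC library (log2 fold change -3.07, SE 0.18, edgeR adjusted p = 1.21e-06).

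The general signalling genes of that list stayed within 2-fold. Gnai3, an inhibitory G protein alpha subunit, was lower in BMSCs at 32.4 ± 1.09 against 45.2 ± 3.301 FPKM (SD, n = 3; log2 fold change -0.48, SE 0.06, edgeR adjusted p = 0.000145). Gna12, an alpha subunit of another class, was higher at 26.4 ± 0.869 against 22.8 ± 0.976 FPKM (log2 fold change 0.21, SE 0.05, edgeR adjusted p = 0.00572), and Gpr107, a membrane protein of the Golgi, was higher at 8.34 ± 0.311 against 6.66 ± 0.365 FPKM (log2 fold change 0.32, SE 0.06, edgeR adjusted p = 0.000963). With TMM scaling Gnai3 was at -0.17 and Gna12 at 0.52 on the log2 scale, and neither passed in the fit of all 12 libraries (edgeR adjusted p = 0.0926 and 0.0625). Fer, a cytoplasmic tyrosine kinase, did not pass at 4.29 ± 0.404 against 4.89 ± 0.379 FPKM (log2 fold change -0.19, 95% interval -0.44 to 0.06).

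Receptors and scaffolds of the TGF-beta family and vascular junctions split between 1 that rose and 2 that did not pass. Acvrl1, a type I receptor of the family known mainly from endothelium, had 5.39, 7.27 and 6.76 FPKM in BMSCs and 2.03, 1.59 and 1.68 FPKM in iPSCs (log2 fold change 1.87, SE 0.15, edgeR adjusted p = 1.09e-05). The other type I receptor measured, Acvr1b, which transmits activin and Nodal signals, had 15.5, 15.3 and 16.2 FPKM in BMSCs and 15.1, 16.8 and 15.9 FPKM in iPSCs. Its interval was narrow around 0 (log2 fold change -0.03, 95% interval -0.16 to 0.11), so any difference at this scaling was small. Ccm2, a scaffold at endothelial junctions, had 11.9 ± 0.371 and 12.98 ± 0.433 FPKM (log2 fold change -0.13, 95% interval -0.27 to 0.01). With TMM scaling Acvr1b and Ccm2 passed as higher in BMSCs, with log2 fold changes of 0.28 and 0.18 (edgeR adjusted p = 0.00201 and 0.0236).

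Both Wnt genes that entered were lower in BMSCs, near the minimum level. Axin2 entered through iPSC libraries alone, so the entry rule fixed its direction. Axin2, a feedback inhibitor that is itself switched on by Wnt signalling, had 0.701, 0.591 and 0.713 FPKM in BMSCs and 2.02, 1.95 and 2.32 FPKM in iPSCs (log2 fold change -1.65, SE 0.16, edgeR adjusted p = 3.43e-05). Wnt9a, a ligand of joint formation, had 0.864, 0.976 and 1.06 FPKM in BMSCs and 2.77, 2.99 and 2.897 FPKM in iPSCs (log2 fold change -1.57, SE 0.17, edgeR adjusted p = 4.81e-05). Neither call was kept by limma on log2(FPKM + 1), a scale that understates the change of low genes.

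The 2 imprinted genes that entered were lower in BMSCs. Slc22a18 entered through iPSC libraries alone, so the entry rule fixed its direction. H19, a maternally expressed non-coding RNA abundant in the embryo, had 2.45, 3.14 and 2.099 FPKM in BMSCs and 23.6, 24.6 and 35.3 FPKM in iPSCs, the third iPSC library being the highest (log2 fold change -3.44, SE 0.21, edgeR adjusted p = 1.94e-06). Slc22a18, a transporter gene of the neighbouring imprinted domain on chromosome 7, had 0.522, 0.388 and 0.829 FPKM in BMSCs and 4.004, 3.91 and 5.01 FPKM in iPSCs (log2 fold change -2.88, SE 0.31, edgeR adjusted p = 5.11e-05). The values are totals over both parental alleles and say nothing of imprinting itself.

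Of 2 Polycomb and germline genes that entered 1 was called. This gene, Rnf17, entered through iPSC libraries alone, so the entry rule fixed its direction. Rnf17, a Tudor-domain protein of male germ cells, had 14.3, 10.96 and 12.1 FPKM in iPSCs and 0, 0 and 0.0165 FPKM in BMSCs. It had the lowest fold change of the 69 genes, and its iPSC over BMSC count ratio was 2079, 95% interval 575 to 17172 (log2 fold change -10.96, SE 0.41, edgeR adjusted p = 1.46e-07). Scmh1, a Polycomb group protein, was higher in BMSCs within 2-fold, at 4.28 ± 0.193 against 2.83 ± 0.471 FPKM (SD, n = 3; log2 fold change 0.6, SE 0.13, edgeR adjusted p = 0.00303).

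Among the other transcription factors, Bcl6b, a zinc-finger repressor related to Bcl6, had 0.232, 0.0887 and 0.158 FPKM in BMSCs and 5.31, 5.68 and 5.57 FPKM in iPSCs (log2 fold change -5.07, SE 0.28, edgeR adjusted p = 1.08e-06). The other three differed by less than 2-fold between the cell types. Klf6, a zinc-finger factor induced by many stimuli, had 24.99 ± 1.77 against 22.4 ± 0.427 FPKM (log2 fold change 0.16, SE 0.06, edgeR adjusted p = 0.0375). This pass was lost in the fit of all 12 libraries (edgeR adjusted p = 0.611), in DESeq2 with library totals and in 5 of the 6 fits that left out 1 library, and TMM scaling took the log2 fold change to 0.47. Tfe3, which drives lysosomal genes, had 8.31 ± 0.630 against 10.4 ± 0.525 FPKM (log2 fold change -0.33, SE 0.07, edgeR adjusted p = 0.00273). Mnt, a partner of Max that opposes Myc, had 13.3 ± 0.239 against 12.2 ± 0.614 FPKM and did not pass (log2 fold change 0.13, 95% interval -0.00 to 0.27). Under TMM scaling Tfe3 no longer passed, with a log2 fold change of -0.02.

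The 3 interferon response genes went different ways. Mx1 entered through BMSC libraries alone and Slfn4 through iPSC libraries alone, so the entry rule fixed the direction of both. Mx1, an interferon-induced GTPase that restricts influenza viruses in strains with an intact copy, had 2.71, 2.82 and 2.71 FPKM in BMSCs and 0.0551, 0 and 0 FPKM in iPSCs. The BMSC libraries were even, 2 of the 3 iPSC libraries were listed at 0, and the ratio of summed counts was 146, 95% interval 56.5 to 536 (log2 fold change 7.15, SE 0.70, edgeR adjusted p = 2.98e-05). Slfn4, a schlafen family member known from myeloid cells, had 2.52, 1.997 and 4.12 FPKM in iPSCs and 0, 0.0273 and 0.0127 FPKM in BMSCs, with an iPSC over BMSC count ratio of 206, 95% interval 70.1 to 1000 (log2 fold change -7.63, SE 0.60, edgeR adjusted p = 8.45e-06). It belongs to a family with close copies, between which reads may be shared. Trim25, a ubiquitin ligase that activates the RNA sensor RIG-I, was abundant in both and lower in BMSCs, at 18.3, 17.6 and 16.3 FPKM against 31.05, 33.2 and 31.7 FPKM (log2 fold change -0.88, SE 0.06, edgeR adjusted p = 2.26e-06).

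With library totals mitochondrial genes were lower in BMSCs or did not pass the test. Of 8 measured, none rose, 6 fell at the adjusted p, 4 of them by over 2-fold, and 2 did not pass. The median log2 fold change was -0.92. Of all genes tested 51.4% fell at the adjusted p and 30% were called lower. Ckmt1 entered through iPSC libraries alone, so the entry rule fixed its direction. Ckmt1, the mitochondrial creatine kinase, had 5.16, 6.25 and 5.84 FPKM in iPSCs and 0, 0 and 0.0397 FPKM in BMSCs, with an iPSC over BMSC count ratio of 386, 95% interval 107 to 3193. The other three called were lower in BMSCs but well measured in every library. Tbrg4, which stabilises mitochondrial transcripts, had 5.52, 5.23 and 4.94 FPKM in BMSCs and 17.4, 16.4 and 15.4 FPKM in iPSCs (log2 fold change -1.64, SE 0.08, edgeR adjusted p = 3.62e-07). Cox5a, a nuclear-encoded subunit of cytochrome oxidase, had 26.03, 29.99 and 28.5 FPKM against 59.8, 68.6 and 61.1 FPKM (log2 fold change -1.16, SE 0.08, edgeR adjusted p = 2.32e-06). Dbt, the transacylase of branched-chain ketoacid breakdown, had 4.21, 5.18 and 4.13 FPKM against 10.3, 9.79 and 10.2 FPKM (log2 fold change -1.16, SE 0.11, edgeR adjusted p = 2.21e-05). Cox5a and Dbt kept their direction but fell inside 2-fold under TMM scaling, with log2 fold changes of -0.86 for each.

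The remaining mitochondrial genes differed less. Dlat, the transacetylase of pyruvate dehydrogenase, had 11.8 ± 0.481 against 18.1 ± 0.929 FPKM (SD, n = 3; log2 fold change -0.62, SE 0.06, edgeR adjusted p = 2.43e-05). Atp5pb, a stalk subunit of ATP synthase, had 35.4 ± 3.36 against 56.4 ± 0.433 FPKM (log2 fold change -0.67, SE 0.07, edgeR adjusted p = 3.88e-05). Sdhd, the membrane anchor of succinate dehydrogenase, had 96.7, 93.1 and 90.4 FPKM in BMSCs and 94, 96.96 and 95.2 FPKM in iPSCs. Its 95% interval for the log2 fold change was -0.13 to 0.07. That of Ndufa9, a subunit of respiratory complex I, was -0.16 to 0.15, at 41.8 ± 2.4 against 41.96 ± 2.64 FPKM. Respiratory chain subunits thus ranged from a fall of over 2-fold (Cox5a) to intervals that span 0 (Sdhd and Ndufa9). Under TMM scaling these last genes passed as higher in BMSCs, with log2 fold changes of 0.28 for Sdhd and 0.30 for Ndufa9 (edgeR adjusted p = 0.000407 and 0.00252).

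Of 9 RNA processing and translation genes measured, 6 fell at the adjusted p, 2 of them by over 2-fold (Tbrg4 and Hnrnpd). In the same list 1 rose within 2-fold and 2 did not pass, with a median of -0.44. The shares over all genes tested were 51.4% lower at the adjusted p and 30% called lower. Hnrnpd, which binds AU-rich elements in transcripts and hastens their decay, had 18.8, 17.8 and 17.6 FPKM in BMSCs and 51.9, 52.5 and 52.2 FPKM in iPSCs. Its replicates were among the tightest, with a coefficient of variation of 0.533% in iPSCs (log2 fold change -1.53, SE 0.04, edgeR adjusted p = 2.6e-08). Xpo6, which exports actin from the nucleus, had 3.75 ± 0.0799 against 7.32 ± 0.0756 FPKM (SD, n = 3; log2 fold change -0.96, SE 0.04, edgeR adjusted p = 2.52e-07). Wdr77, the partner of the arginine methyltransferase Prmt5, had 6.302, 9.096 and 10.03 FPKM in BMSCs and 16.8, 16.2 and 13.9 FPKM in iPSCs, the first BMSC library being the lowest (log2 fold change -0.88, SE 0.17, edgeR adjusted p = 0.00156). Wdr77 and Atp5pb overlap at their 5′ ends on opposite strands of chromosome 3, so their reads share the uncertainty given for Arvcf.

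Smaller falls in that list were 0.44 on the log2 scale for Mkrn2, a RING-finger protein of the makorin family (4.41 ± 0.379 against 5.996 ± 0.200 FPKM, edgeR adjusted p = 0.00138), and 0.34 for Rtca, an RNA cyclase (18.3 ± 0.653 against 23.1 ± 1.47 FPKM, edgeR adjusted p = 0.00312). Neither passed under TMM scaling, with log2 fold changes of -0.14 and -0.03. Mkrn2 also shares exon sequence with a gene on the opposite strand. Narf, which binds prenylated prelamin A, was the member that was higher, at 12.1, 11.7 and 12.7 FPKM against 6.83, 7.12 and 6.66 FPKM (log2 fold change 0.82, SE 0.06, edgeR adjusted p = 6.55e-06). Mcts1, which with Denr lets ribosomes start again after a short reading frame, had 12.8 ± 0.344 against 13.7 ± 1.04 FPKM and a 95% interval of -0.31 to 0.11. C1d, a cofactor of the nuclear exosome, had 4.35, 7.44 and 4.05 FPKM in BMSCs and 6.12, 5.74 and 5.64 FPKM in iPSCs, the second BMSC library lying above every other and the interval reaching from -0.67 to 0.38. Without that library its log2 fold change was -0.47 and it passed as lower (edgeR adjusted p = 0.00314).

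Of 7 genes of the secretory, lysosomal and trafficking list 2 were called higher in BMSCs, beside 18.6% of all genes tested. At the adjusted p 4 were higher, 2 were lower and 1 did not pass, with a median of 0.32. Of all genes tested 27.1% were higher and 51.4% lower at the adjusted p. Gm2a, the activator protein that presents the ganglioside GM2 to its lysosomal hydrolase, had 32.5, 31.8 and 32.05 FPKM in BMSCs and 10.04, 10.1 and 9.46 FPKM in iPSCs (log2 fold change 1.7, SE 0.05, edgeR adjusted p = 3.39e-08). Tom1l2, an adaptor of endosomal sorting, had 7.81, 7.36 and 7.64 FPKM against 2.72, 2.33 and 2.48 FPKM (log2 fold change 1.6, SE 0.08, edgeR adjusted p = 3.62e-07). Scpep1, a serine carboxypeptidase of lysosomes, was the most abundant of the 69 genes in BMSCs, at 167, 159.6 and 166 FPKM against 82.5, 81.6 and 86.8 FPKM in iPSCs. Its log2 fold change of 0.97 (SE 0.04, edgeR adjusted p = 2.43e-07) lay just under the 2-fold threshold, and TMM scaling took it to 1.28.

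The lower genes of that list were Galnt1, which starts O-linked mucin glycosylation, at 10.2 ± 0.573 against 12.1 ± 0.734 FPKM (log2 fold change -0.24, SE 0.07, edgeR adjusted p = 0.0117), and Dynlt1c, a dynein light chain, at 8.35 ± 1.43 against 10.9 ± 0.309 FPKM (log2 fold change -0.38, SE 0.13, edgeR adjusted p = 0.0237). Neither passed under TMM scaling, where Galnt1 turned to a log2 fold change of 0.06 and Dynlt1c was at -0.07 (edgeR adjusted p = 0.594). Dynlt1c has near-identical copies beside it, so its count is uncertain. Trappc10, a subunit of a vesicle tethering complex, had 6.28 ± 0.605 against 6.87 ± 0.456 FPKM and did not pass (95% interval -0.34 to 0.08).

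In small molecule metabolism 1 of 4 genes was called higher and 1 lower, Ckmt1, given above. Hddc2, an HD-domain phosphatase, had 2.86, 3.24 and 3.02 FPKM in BMSCs and 5.89, 5.98 and 6.12 FPKM in iPSCs, just under the 2-fold threshold (log2 fold change -0.98, SE 0.10, edgeR adjusted p = 3.64e-05). Pemt, which makes phosphatidylcholine in the liver and is low here, did not pass, with a log2 fold change of 0.64 and the wide 95% interval of -0.22 to 1.49. With TMM scaling Pemt passed as higher in BMSCs (log2 fold change 0.94, edgeR adjusted p = 0.0383).

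With library totals no gene of the replication and cell cycle list was called. Cdc45, part of the helicase that opens DNA at replication forks, came nearest, at 7.19, 8.303 and 7.98 FPKM in BMSCs and 14.5, 15.4 and 15.5 FPKM in iPSCs (log2 fold change -0.95, SE 0.08, edgeR adjusted p = 8.45e-06). Ccnd2, cyclin D2, had 13.1, 13.1 and 12.5 FPKM in BMSCs and 13.3, 14.1 and 13.9 FPKM in iPSCs, with a 95% interval of -0.20 to 0.01 for its log2 fold change. Brat1, a partner of the DNA damage kinase ATM, had 4.04 ± 0.350 against 3.81 ± 0.350 FPKM (95% interval -0.16 to 0.33). With Mnt, 3 of these 4 genes did not pass the test, and the table held no other gene of the list of 25. Under TMM scaling Brat1, Ccnd2 and Mnt passed as higher in BMSCs within 2-fold, with log2 fold changes of 0.39, 0.21 and 0.44 (edgeR adjusted p = 0.00831, 0.0018 and 0.000106).

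Of the 7 genes in no list, Dazap2 and Septin1 are named by the size of their change and Rem1, Dgke, Gmpr, Grasp and Zfp385a were named after their values were seen. Septin1, a filament-forming GTPase of the cytoskeleton, had 0.758, 1.12 and 0.565 FPKM in BMSCs and 27.5, 28.2 and 28.6 FPKM in iPSCs (log2 fold change -5.1, SE 0.22, edgeR adjusted p = 2.43e-07), and shares exon sequence with Zfp553 on the opposite strand. Dazap2, a small proline-rich protein that takes part in Wnt signalling and stress granules, had 57.6, 55.2 and 55.2 FPKM against 22.9, 22.03 and 23.8 FPKM (log2 fold change 1.29, SE 0.05, edgeR adjusted p = 1.46e-07). Both differences were many times the spread between cultures. Rem1, a Ras-like GTPase that holds back calcium channels, was higher in BMSCs at 1.46, 2.32 and 1.62 FPKM against 0.197, 0.272 and 0.313 FPKM (log2 fold change 2.75, SE 0.34, edgeR adjusted p = 0.00012). Dgke, which phosphorylates diacylglycerol, was lower at 0.392, 0.584 and 0.358 FPKM against 3.76, 3.17 and 3.603 FPKM (log2 fold change -2.98, SE 0.20, edgeR adjusted p = 2.89e-06). Gmpr, GMP reductase, overlapped between the groups at 2.69, 2.29 and 3.32 FPKM and 3.27, 5.56 and 4.06 FPKM, with an edgeR adjusted p of 0.0421 close to the threshold. Grasp, a scaffold of neuronal receptors, and Zfp385a, a zinc-finger protein that binds RNA, did not pass, with 95% intervals of -0.11 to 0.37 and -0.15 to 0.29. With TMM scaling Grasp and Zfp385a passed as higher in BMSCs, with log2 fold changes of 0.43 and 0.38 (edgeR adjusted p = 0.00528 and 0.00817). Gmpr no longer passed with that scaling (edgeR adjusted p = 0.241).

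To see which of these differences also set BMSCs apart from another adherent mesenchymal culture, the same 69 genes were compared between BMSCs and Fibs. The 2 comparisons share the BMSC libraries and are given side by side. Against Fibs 17 genes were called, 6 higher and 11 lower in BMSCs, where 25.7% of all genes tested were called, 8.57% higher and 17.1% lower. At the adjusted p alone 52 passed, 27 higher and 25 lower, beside 75.7% of all genes tested, 38.6% higher and 37.1% lower. Of the 12 genes higher in BMSCs than in iPSCs, 2 were also higher than in Fibs (Tbx4 and Mx1), 3 were lower than in Fibs (Fgf23, Acvrl1 and Sox9) and 7 were not called. Mx1 was at the threshold, with a log2 fold change of 1.01 against Fibs, and 8 of 14 alternatives did not call it, among them the fits without the second BMSC, the first Fib or the second Fib library. Of the 21 genes lower than in iPSCs, 5 were also lower than in Fibs (Ngfr, Slc22a18, Slfn4, Dgke and Rnf17). Lck was higher and 15 were not called. Ngfr, Rnf17 and Lck were under the minimum FPKM of 1 in every BMSC and Fib library. In Fibs Ngfr had 0.145, 0.0901 and 0.223 FPKM. Rnf17 had 0.334, 0.227 and 0.199 FPKM there, and Lck 0.149, 0.216 and 0.146 FPKM. The Ngfr call was lost with limma on log2(FPKM + 1) and with the replicate numbers as a block. It was also lost without BMSC replicate 1 or 2, or Fib replicate 2 or 3. The next counts cover only the 33 called genes, which were picked for differing between BMSCs and iPSCs. They were not made over all genes tested and give no measure of likeness between the cell types. For 30 of the 33 genes the Fib mean lay nearer to the BMSC mean than to the iPSC mean on the log2(FPKM + 1) scale, the exceptions being Tbx4, Slc22a18 and Slfn4. The iMSC mean was nearer to BMSCs for 32 of the 33, Slfn4 being the exception. The second iMSC library stood apart, with Mx1 at 0.23 FPKM against 6.16 and 4.66 FPKM in the other two, and it alone was nearer to BMSCs for 27 of the 33.

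Tbx4 was higher in BMSCs than in Fibs and iPSCs, with 1.47, 0.945 and 0.922 FPKM in Fibs, below every iPSC library (log2 fold change 2.70, SE 0.20, edgeR adjusted p = 5.41e-06 against Fibs). The iMSC libraries had 7.55, 4.68 and 8.9 FPKM. Sox9 was higher still in Fibs, at 17.6, 17.9 and 16.9 FPKM (log2 fold change -1.37, SE 0.05, edgeR adjusted p = 6.47e-08). The same order held for Acvrl1, at 17.1, 15.7 and 28.1 FPKM in Fibs with the third library far above the others (log2 fold change -1.65, SE 0.22, edgeR adjusted p = 0.000176), and for Fgf23, at 8.66, 10.8 and 9.52 FPKM (log2 fold change -2.41, SE 0.26, edgeR adjusted p = 4.91e-05). BMSCs thus lay between iPSCs and Fibs for Sox9, Acvrl1 and Fgf23, with no overlap between any of the 3 groups. Egfl6 was within 2-fold of Fibs, at 50.3, 48.2 and 43.5 FPKM there (log2 fold change 0.74, SE 0.06, edgeR adjusted p = 1.21e-05). Cdh1 was low in Fibs too, at 0.0364, 0.0700 and 0.117 FPKM, and Gpa33 was at 0, 0.0195 and 0.0393 FPKM.

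Slc22a18 had its highest level in Fibs, at 6.11, 9.15 and 10.5 FPKM, so BMSCs were the lowest of these 3 cell types (log2 fold change -3.87, SE 0.34, edgeR adjusted p = 1.36e-05). Slfn4 was listed at 0 in 1 Fib library and was at 2.3 and 2.39 FPKM in the other two, so the Fib libraries did not agree among themselves. Hnrnpd had 8.81, 9.16 and 9.77 FPKM in Fibs, so BMSCs lay between Fibs and iPSCs (log2 fold change 0.97, SE 0.05, edgeR adjusted p = 9.98e-07, just under 2-fold). Genes not called against iPSCs could still differ from Fibs, as 6 of 36 did. Cdc45 was at 1.03, 0.908 and 1.12 FPKM in Fibs (log2 fold change 2.93, SE 0.13, edgeR adjusted p = 2.15e-07). On the log2 scale its BMSC level was nearer to that of iPSCs, with a log2 fold change of -0.95 against them. Ccnd2, which did not pass between BMSCs and iPSCs, was at 61.7, 59.2 and 55.1 FPKM in Fibs (log2 fold change -2.19, SE 0.05, edgeR adjusted p = 3.64e-09), and Acvr1b was at 37.6, 38.5 and 39.9 FPKM (log2 fold change -1.31, SE 0.05, edgeR adjusted p = 6.27e-08). The other three of the 6 were Pemt and Dynlt1c, higher in BMSCs than in Fibs, and Fer, lower.

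**Figure D4:**
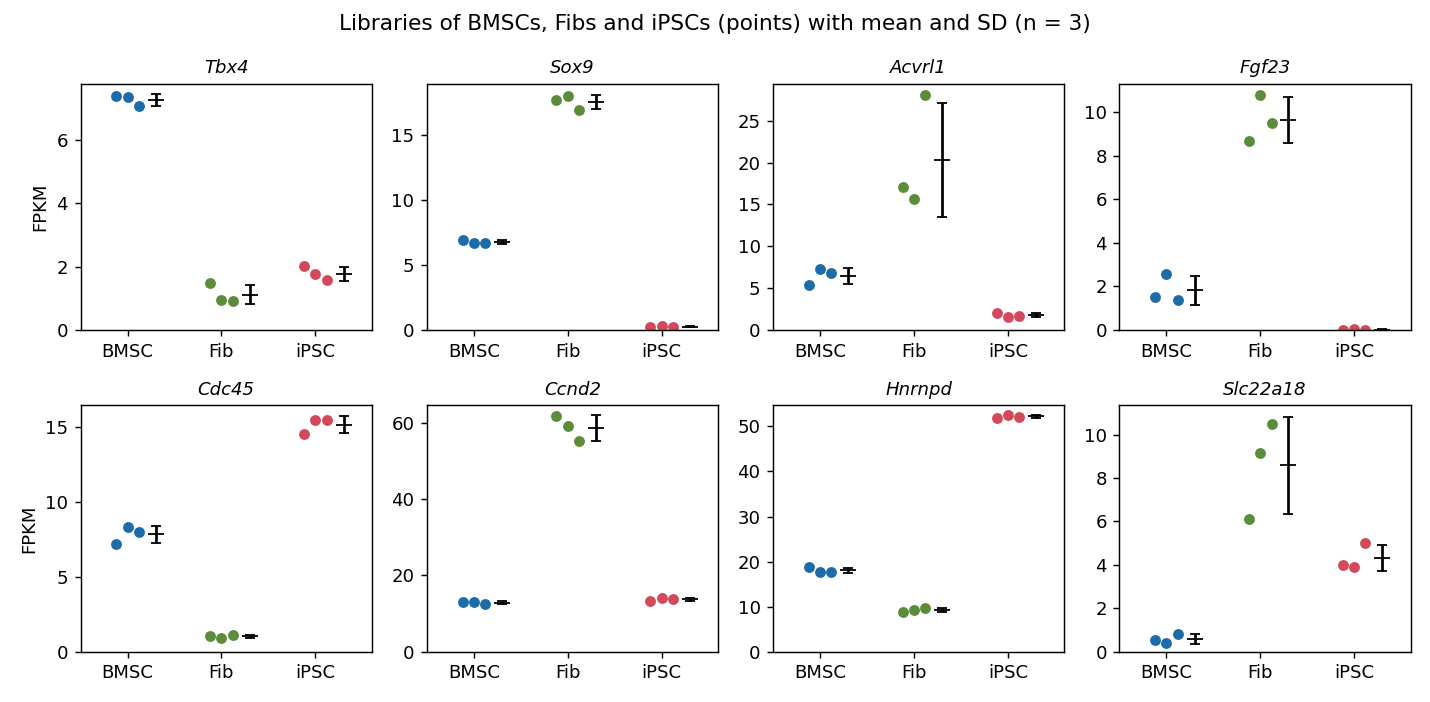
FPKM of each library (vertical axes, each from 0) in BMSCs (blue), Fibs (green) and iPSCs (red) for 8 genes chosen after their values were seen, with the mean and SD of 3 libraries as black bars. Of these 3 cell types, Tbx4 is highest in BMSCs, Sox9, Acvrl1, Fgf23, Ccnd2 and Slc22a18 are highest in Fibs, and Cdc45 and Hnrnpd are highest in iPSCs with BMSCs between.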

How the data were processed

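Poly(A) RNA of 12 mouse libraries, 3 each of BMSCs, Fibs, iMSCs and iPSCs, was sequenced as paired reads of 150 bases. The submitters' processing notes name cutadapt 1.9, HISAT2 2.0.4, StringTie 1.3.4d and mm9. The authors' deposited FPKM values came from StringTie and Ballgown and are scaled by transcript length and library total. The authors deposited whole-number counts that are not normalized, by a method that the sources used here do not give. Of 77 values from 1 to 13, 61 were 4, 8 or 12, so 95% intervals of count ratios were computed on counts divided by 4 and cover counting error only. The coordinates are those of the table, and 58 of the 69 genes had the same start and end in GENCODE M21 (GRCm38). The table held 99 genes, with 0 further columns of samples.

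The 70 genes that reached an FPKM of 1 in 3 or more of the 12 libraries were tested on the counts with edgeR 4.0.16 (R 4.3.3), with library totals implied by count, FPKM and transcript length over single-transcript genes of at least 500 counts, a prior count of 0.125 and Benjamini-Hochberg adjustment over the 70 genes. A standard error was taken as the absolute log2 fold change divided by the square root of the F statistic. The intervals of log2 fold changes were computed from it. It is too small for genes with very few counts in a cell type, and understates their uncertainty. For Ngfr it was 0.42, whereas DESeq2 with library totals gave 1.16. Without BMSC replicate 3, the only BMSC library with Ngfr counts, the log2 fold change went from -9.92 to -14.43. P-values measure the spread between 3 cultures a group, and the sources used here do not say whether these came from separate animals or colonies. Replicate libraries differed by more than counting noise (chi-square per degree of freedom 15.5 to 21.4). DESeq2 1.42.0, limma 3.58.1, other scalings, filters and thresholds, and leaving out each library were alternatives. Genes named were those of the gene lists and, above 5 FPKM, the 10 largest rises and 10 largest falls, each past the adjusted p with groups that did not overlap. Of these, 2 are not reported here. The genes and lists were chosen with earlier results of these data known.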

Additional observations from a re-analysis of the deposited data

How the results depend on the processing

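Between BMSCs and iPSCs 31 to 34 genes were called under every alternative except 3. A minimum of 5 FPKM left 23 (9 higher, 14 lower), an absolute log2 fold change over 2 left 22 (8 and 14), and the adjusted p alone gave 54 (18 and 36). Leaving out each library in turn gave 33 to 34 calls, with all 33 shared. TMM, median-ratio and DESeq2's own scaling gave 33 calls (14 higher, 19 lower against 12 and 21), 31 of them shared, losing Cox5a and Dbt and gaining Narf and Scpep1. These scalings, computed from the 70 genes tested alone, moved the median of those genes by 0.31 (TMM) and 0.19 on the log2 scale. limma on log2(FPKM + 1) called 31. The replicate numbers do not pair the samples (correlations of same-numbered libraries -0.14, -0.09 and -0.01), and with the replicate block 33 genes were called, the same 33 as without it.

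No called gene changed direction under any alternative. Genes near 0 did. With TMM scaling the log2 fold changes became 0.12 for Fer, 0.28 for Sdhd, 0.21 for Ccnd2, 0.20 for Mcts1, 0.18 for Trappc10, 0.18 for Ccm2, 0.30 for Ndufa9, 0.062 for Galnt1, 0.28 for Acvr1b and 0.16 for C1d. With median-ratio scaling, and the same as printed with DESeq2's own size factors, they became 0.0075 for Fer, 0.16 for Sdhd, 0.10 for Ccnd2, 0.094 for Mcts1, 0.067 for Trappc10, 0.065 for Ccm2, 0.19 for Ndufa9, 0.17 for Acvr1b and 0.048 for C1d. Leaving out each library in turn, Ndufa9 ranged from -0.042 to 0.046, Acvr1b from -0.066 to 0.012 and C1d from -0.47 (without BMSC replicate 2) to 0.015 (without BMSC replicate 3). The cause was not tested.

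Between BMSCs and Fibs 17 genes were called. limma on log2(FPKM + 1) called 10 (3 higher, 7 lower), an absolute log2 fold change over 2 left 8 (2 and 6), and the adjusted p alone gave 52 (27 and 25). The replicate block gave 16, losing Ngfr. limma on log2(FPKM + 1) lost Dgke, Fer, Lck, Mx1, Ngfr, Pemt and Rnf17. Leaving out each library in turn gave 14 to 17, losing Fer, Ngfr, Mx1 or Pemt and gaining Wdr77 or Hnrnpd.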

Other observations

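Of the 30 genes of the table that did not enter, Itgb2 and Alox12 lay just under the minimum in at least one cell type and Tbx2 was low in both. Itgb2, the beta-2 integrin chain of leukocytes, had 0.663, 0.803 and 0.363 FPKM in BMSCs and 0.601, 0.745 and 0.955 FPKM in iPSCs, so the groups overlapped. Alox12, a lipoxygenase of platelets and skin, had 0.0591, 0.0397 and 0.0690 FPKM in BMSCs and 0.741, 0.697 and 0.892 FPKM in iPSCs. Tbx2, a T-box gene beside Tbx4 on chromosome 11, had 0.0146, 0.0890 and 0.0571 FPKM in BMSCs and 0.295, 0.105 and 0.163 FPKM in iPSCs, where Tbx4 was higher in BMSCs. These genes were named after their values were seen and were not tested.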
